A study of Mus musculus with 24 samples.

Results

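The 8 genes described here, Hmgcs1, Idi1, Fdps, Fdft1, Sqle, Lss, Cyp51 and Insig1, are genes of cholesterol synthesis and its control. They were picked by gene symbol, and each matched 1 of the 49705 gene entries measured. All 8 passed the filter of a normalized count of at least 10 in at least 3 libraries, which left 21005 genes. The samples came from a time course of optic vesicle (OV) organoids, small aggregates of mouse embryonic stem cells (mESCs) that take on early eye character in culture. The cells were a single line, Rx-GFP K/I EB5, with green fluorescent protein (GFP) knocked into the Rax locus, so that every group carried the reporter, and the cell type label was ESC for all libraries. Day 0 cells had no treatment and came, per the labels, from maintenance medium with 10% serum replacement (KOSR), 1% fetal calf serum (FCS) and LIF. The other libraries came from cells under differentiation, in medium with 1.5% KOSR per the labels and growth factor-reduced Matrigel added to 2% on day 1. There were 8 groups of 3 replicates each, 24 libraries in all: live single cells of days 0 to 3, collected by flow cytometry whatever their GFP signal, and the GFP-positive and the GFP-negative fraction of days 4 and 5. A sample came from 24 pooled organoids, each begun with 4500 plated cells. Weakly fluorescent cells were partly counted as GFP-negative by the gate.

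Cholesterol is built from acetyl-CoA. Early enzymes make mevalonate, later ones turn it into isoprenoid units and join these to squalene, and squalene is closed to the sterol ring and trimmed to cholesterol. The enzymes are switched largely as a set: when sterol in the endoplasmic reticulum is low, the transcription factors SREBP (Srebf1, Srebf2) are cut free from the membrane and bind sterol regulatory elements in the promoters of these genes, with NF-Y at CCAAT boxes and Sp1 at GC boxes as partners. Dividing cells need the product for new membrane, and cholesterol is attached to Hedgehog proteins, signals that pattern the forebrain and the eye.

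In these data the group means of the 8 genes moved within a narrow range, from 1.66 times for Idi1 and Sqle to 2.33 times for Hmgcs1 between the lowest and the highest group. Day 0 was the lowest group for 7 of the 8 genes, and day 5 GFP-positive cells were the lowest for Fdft1. Of the 8, 7 rose from day 0 to day 3 at an adjusted p under 0.05 (21.1% of all genes were called higher), and 5 fell in GFP-positive cells from day 4 to day 5 (5.24% of all genes were called lower). From day 3 to day 4, 1 (Cyp51) rose and 1 (Fdft1) fell in both sorted fractions, which is near the shares of all genes. For GFP-positive cells 17.1% of all genes were called higher and 20.9% lower, and for GFP-negative cells 9.49% and 9.01%. Without day 3 replicate 1 the rise of Cyp51 was kept in GFP-positive cells only, and the fall of Fdft1 in neither fraction. None of the 8 passed the thresholds used in the study, an adjusted p under 0.001 with a log2 difference beyond 1.5, in any of 11 contrasts, where between 0.109% and 12.0% of all genes passed.

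The genes lie on 6 chromosomes, at the positions given in the deposited table for mouse build mm10, which have the same start and end in the GENCODE M21 annotation. Hmgcs1 (ENSMUSG00000093930) and Idi1 (ENSMUSG00000058258) are on the plus strand of chromosome 13, at chr13:119690379-119708260 and chr13:8885501-8892451. Cyp51 (ENSMUSG00000001467), on the minus strand at chr5:4081145-4104746, and Insig1 (ENSMUSG00000045294), on the plus strand at chr5:28071363-28078662, share chromosome 5. Sqle (ENSMUSG00000022351) is at chr15:59315077-59331192 and Lss (ENSMUSG00000033105) at chr10:76531588-76557138, both on the plus strand. Fdps (ENSMUSG00000059743) is at chr3:89093588-89101959 and Fdft1 (ENSMUSG00000021273) at chr14:63145150-63179578, both on the minus strand.

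The promoters of 5 of the 8 genes, Hmgcs1, Idi1, Lss, Cyp51 and Insig1, were in the RefSeq table of promoter windows (build GRCm38.p6) used here. Each was searched on both strands, over the 250 bases before the start in RefSeq, for 4 motifs: TCACNCCAC, a form of the sterol regulatory element; CCAAT, the letters of NF-Y; GGGCGG, a GC box; and CACGTG, an E-box. The RefSeq start lay 28 bases before the start of the deposited table for Hmgcs1, and after it for Lss (17 bases), Cyp51 and Insig1 (49 bases each) and Idi1 (105 bases), so that the ends of these windows are in annotated exons. All 250 bases of the Idi1 window are in annotated exons, those of Idi1 or of another gene, Gm48574. A CCAAT box and a GC box stood in all 5 windows, against 34.5% and 32.9% of 27025 promoters of the same length. The CCAAT boxes of Idi1 and Cyp51 and the GC box of Idi1 were within exons. TCACNCCAC was matched in Hmgcs1 alone of the 5, 137 bases before the RefSeq start (1.04% of all promoters). Other forms of the sterol regulatory element were not searched, so a window without this match can still hold one. The E-box was matched in Insig1 alone, 101 bases before the RefSeq start and 52 before that of the deposited table (6.05% of all promoters). A match is a description of the letters in the window and was not tested as a site of binding. The windows of 3 genes are shown: Hmgcs1, which has the match to TCACNCCAC and the widest range of levels, Lss, which differed most in the day 5 sort, and Insig1, the regulator. Bases inside annotated exons are left out. Capitals mark TCACNCCAC, CCAAT on either strand (ATTGG as read here) and CACGTG, in windows at chr13:119690101-119690350, chr10:76531355-76531587 and chr5:28071162-28071362, all on the plus strand.
Hmgcs1: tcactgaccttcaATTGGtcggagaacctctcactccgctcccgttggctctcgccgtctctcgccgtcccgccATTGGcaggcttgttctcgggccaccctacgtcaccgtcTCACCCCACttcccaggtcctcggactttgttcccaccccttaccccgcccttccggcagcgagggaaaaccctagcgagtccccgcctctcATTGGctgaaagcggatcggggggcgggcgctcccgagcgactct
Lss: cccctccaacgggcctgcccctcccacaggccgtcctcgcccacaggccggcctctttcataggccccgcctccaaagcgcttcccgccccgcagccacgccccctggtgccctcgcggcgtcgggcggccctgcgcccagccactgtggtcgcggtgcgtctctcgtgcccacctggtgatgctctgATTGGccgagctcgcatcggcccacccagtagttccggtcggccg
Insig1: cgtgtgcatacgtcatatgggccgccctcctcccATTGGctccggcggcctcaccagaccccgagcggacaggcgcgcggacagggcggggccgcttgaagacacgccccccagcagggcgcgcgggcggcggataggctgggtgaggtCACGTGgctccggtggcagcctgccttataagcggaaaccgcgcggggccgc

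The values are normalized counts, kallisto estimates of reads per gene divided by DESeq2 size factors by the authors, and tests were made on log2(normalized count + 1). Totals of normalized counts per library lay between 39849111 and 51587535, and Spearman's rho between replicates was 0.953 to 0.993. Day 0 replicate 1 stood apart over all genes of the fit, at a rho of 0.954 and 0.953 with replicates 2 and 3. Those were at 0.988 with each other, and no other pair of replicates was below 0.979. Every contrast with day 0 holds this library, also for the genes named later. Over the 8 genes, 2 libraries stood apart. Day 0 replicate 1 had a mean absolute log2 distance of 0.605 from the mean of the other day 0 replicates, with signed distances from -0.65 for Lss to 1.11 for Insig1. For day 3 replicate 1 the mean absolute distance was 0.30, with signed distances from -0.815 for Idi1 to 0.33 for Fdps. Day 0 replicates 3 and 2 were at 0.344 and 0.277, distances that have replicate 1 in them, day 3 replicate 2 was at 0.163, and the libraries of other groups were at 0.046 to 0.162. Counts of members called are therefore given with and without both libraries. Since the 2 were picked on these 8 genes, leaving them out lowers the spread estimated for the same genes, also in contrasts that hold neither library, and the counts without them are no independent support. The labels of the groups went with their markers: the summed level of 6 genes of pluripotent cells was 107323 to 150433 normalized counts on day 0 and 355 to 514 in day 5 GFP-positive cells, and that of 5 eye field genes was 54804 to 57307 in day 5 GFP-positive cells against 8351 to 9094 in day 5 GFP-negative cells. No marker was at 0 in any library.

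Hmgcs1 makes HMG-CoA, the forerunner of mevalonate. Its 3 day 0 libraries held 18283.5, 13947.5 and 11672 normalized counts, and those of day 1 held 18609.6, 15581 and 19737. On day 2 the values were 20276, 21877.5 and 21919.9, and on day 3 they were 20026, 30883 and 31084.5. Replicate 1 of day 3 was low, at the level of day 2, and the other two were above every library of days 0 to 2. Day 4 GFP-negative libraries held 34149, 36802 and 31230.5 and day 4 GFP-positive libraries 32147, 34433 and 33538. On day 5 the GFP-negative libraries held 28334, 34898.5 and 33135, and the GFP-positive libraries held 21776, 22058 and 21913. The day 5 GFP-positive libraries were close to each other and lay below every day 4 and day 5 library of the other sorted groups. The group means ran from 14634 ± 3359 (SD, n = 3) on day 0 to 34060.4 ± 2787 (SD, n = 3) in day 4 GFP-negative cells, and replicates overlapped in 6 of the 7 neighbouring pairs of groups in that order.

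Idi1 converts isopentenyl diphosphate to its reactive isomer. Its normalized counts were 8685, 4111 and 4177 on day 0, where replicate 1 lay above the others. On day 1 they were 6308.5, 5326 and 6452 and on day 2 5989, 5970.5 and 6462. Day 3 libraries held 5405, 9771 and 9259, the first of them below all of day 2 and the others above. The sorted cells of day 4 held 9226, 10332 and 8009.9 in the GFP-negative and 9509.8, 9517 and 9086 in the GFP-positive fraction. On day 5 the GFP-negative libraries, at 7165, 9713 and 9322, overlapped the GFP-positive ones, at 6771, 7158 and 7532. The means ran from 5658 ± 2622 (SD, n = 3) on day 0 to 9371 ± 247 (SD, n = 3) in the day 4 GFP-positive fraction, with overlap in 6 of 7 neighbouring pairs.

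Fdps joins isoprenoid units to farnesyl diphosphate, from which sterols, ubiquinone and the lipid anchors of proteins are made. Its day 0 libraries held 9468.5, 6645 and 6089 normalized counts and its day 1 libraries 10977, 10641 and 11974. Day 2 libraries, at 16999, 15489 and 15784, were above all other libraries, and day 3 libraries held 15295, 12399.9 and 11983. Levels on day 4 were 10242, 10889 and 13981 in the GFP-negative fraction and 14033, 13467 and 11677 in the GFP-positive one. These fractions overlapped, as did those of day 5, at 11763, 9715 and 10360.3 in GFP-negative and 9209.99, 7712 and 10041 in GFP-positive cells. The means ran from 7401 ± 1812 (SD, n = 3) on day 0 to 16091 ± 800.3 (SD, n = 3) on day 2, and 6 of 7 neighbouring pairs overlapped.

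Fdft1, squalene synthase, makes the first molecule used for sterols alone. Normalized counts were 5987, 5441 and 5129.5 on day 0 and 7935, 8491 and 8090.2 on day 1. On day 2 all 3 libraries were within 9387 and 9422, and on day 3 the values were 9481, 8223 and 7741.5. From day 4 the levels were lower than on days 1 and 2 in every library: 6474, 6989.8 and 7236.5 in day 4 GFP-negative and 6953, 7329 and 6419 in day 4 GFP-positive cells. Day 5 GFP-negative cells held 6841, 6438 and 6285 and day 5 GFP-positive cells 5213, 4835 and 5330.4. The last of these groups overlapped day 0 and no other. The lowest mean was 5126 ± 259 (SD, n = 3), that of the day 5 GFP-positive fraction, and the highest was 9410.4 ± 19.9 (SD, n = 3) on day 2, with overlap in 5 of 7 neighbouring pairs.

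Sqle adds oxygen to squalene and is held to be a rate-limiting enzyme of the sterol branch. Its day 0 libraries held 7101, 6624 and 5741 normalized counts, all below the 9642, 9229 and 9599 of day 1. Day 2 libraries held 11003, 10658 and 10333 and day 3 libraries 10305, 10761 and 10476. The fractions of day 4 held 9759, 10566 and 10407 (GFP-negative) and 10405, 11240.04 and 10666 (GFP-positive). From day 1 to day 4 no library left the range from 9229 to 11240.04. On day 5 the GFP-negative libraries, at 9433, 9491 and 9877, stayed in that range, and the GFP-positive libraries, at 7562, 7295 and 8400.3, were below it. The means ran from 6489 ± 689.7 (SD, n = 3) on day 0 to 10770.3 ± 427 (SD, n = 3) in the day 4 GFP-positive fraction, and 5 of 7 neighbouring pairs overlapped.

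Lss, lanosterol synthase, closes the sterol ring. The day 0 libraries spread widely, at 2870.2, 5276 and 3856 normalized counts, and those of day 1, at 6379, 5553 and 6500.5, were above them. On day 2 the values were 8424, 7665 and 8117, and on day 3, at 6631, 6690.4 and 6180.4, all were below day 2. Day 4 libraries held 5888, 7683 and 6933 in the GFP-negative and 6579, 6903 and 6390.1 in the GFP-positive fraction. Day 5 GFP-negative libraries held 8472, 8183 and 7469, which overlapped day 2, while day 5 GFP-positive libraries held 4772, 3612 and 4397. These GFP-positive libraries were in the range of day 0 and below every library of days 1 to 4. The means ran from 4001 ± 1209 (SD, n = 3) on day 0 to 8069 ± 382 (SD, n = 3) on day 2, with overlap in 6 of 7 neighbouring pairs.

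Cyp51 removes a methyl group from lanosterol, the first trimming of the ring. Its normalized counts were 5558, 4193 and 3530.2 on day 0, 4877, 5205 and 4556 on day 1 and 5893, 5972 and 6134 on day 2. Day 3 libraries held 5977, 7114 and 6678. Every sorted library lay above them, at 8108, 9432 and 9695 in day 4 GFP-negative and 9611, 10347 and 10169.6 in day 4 GFP-positive cells. On day 5 the GFP-negative fraction held 9695, 9850.1 and 10196 and the GFP-positive fraction 7715, 8438 and 8291. Unlike the other genes, its day 5 GFP-positive libraries, though below the others of their day, were above all libraries of days 0 to 3. The means ran from 4427 ± 1034 (SD, n = 3) on day 0 to 10043 ± 384 (SD, n = 3) in the day 4 GFP-positive fraction, and 5 of 7 neighbouring pairs overlapped.

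Insig1 is the brake of the pathway: with sterol present its protein holds the SREBP complex in the endoplasmic reticulum, and its own gene is switched on by SREBP. The day 0 libraries held 7993, 3647 and 3746.5 normalized counts, the first of them more than 1.5 times the others. Day 1 libraries held 7063, 6437 and 7015, and those of day 2, at 8075, 7848 and 8126, were above all of day 1. On day 3 the values were 6202, 6632 and 6519.8, all below day 2. The fractions of day 4 overlapped, at 7172, 8136 and 7514 (GFP-negative) and 7522, 7726 and 7565.5 (GFP-positive). Those of day 5 were apart, at 8747, 8168 and 8976 in GFP-negative and 5632, 6028 and 5754 in GFP-positive cells. The means ran from 5129 ± 2481 (SD, n = 3) on day 0 to 8630.2 ± 417 (SD, n = 3) in day 5 GFP-negative cells, and 4 of 7 neighbouring pairs overlapped.

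**Figure D1:**
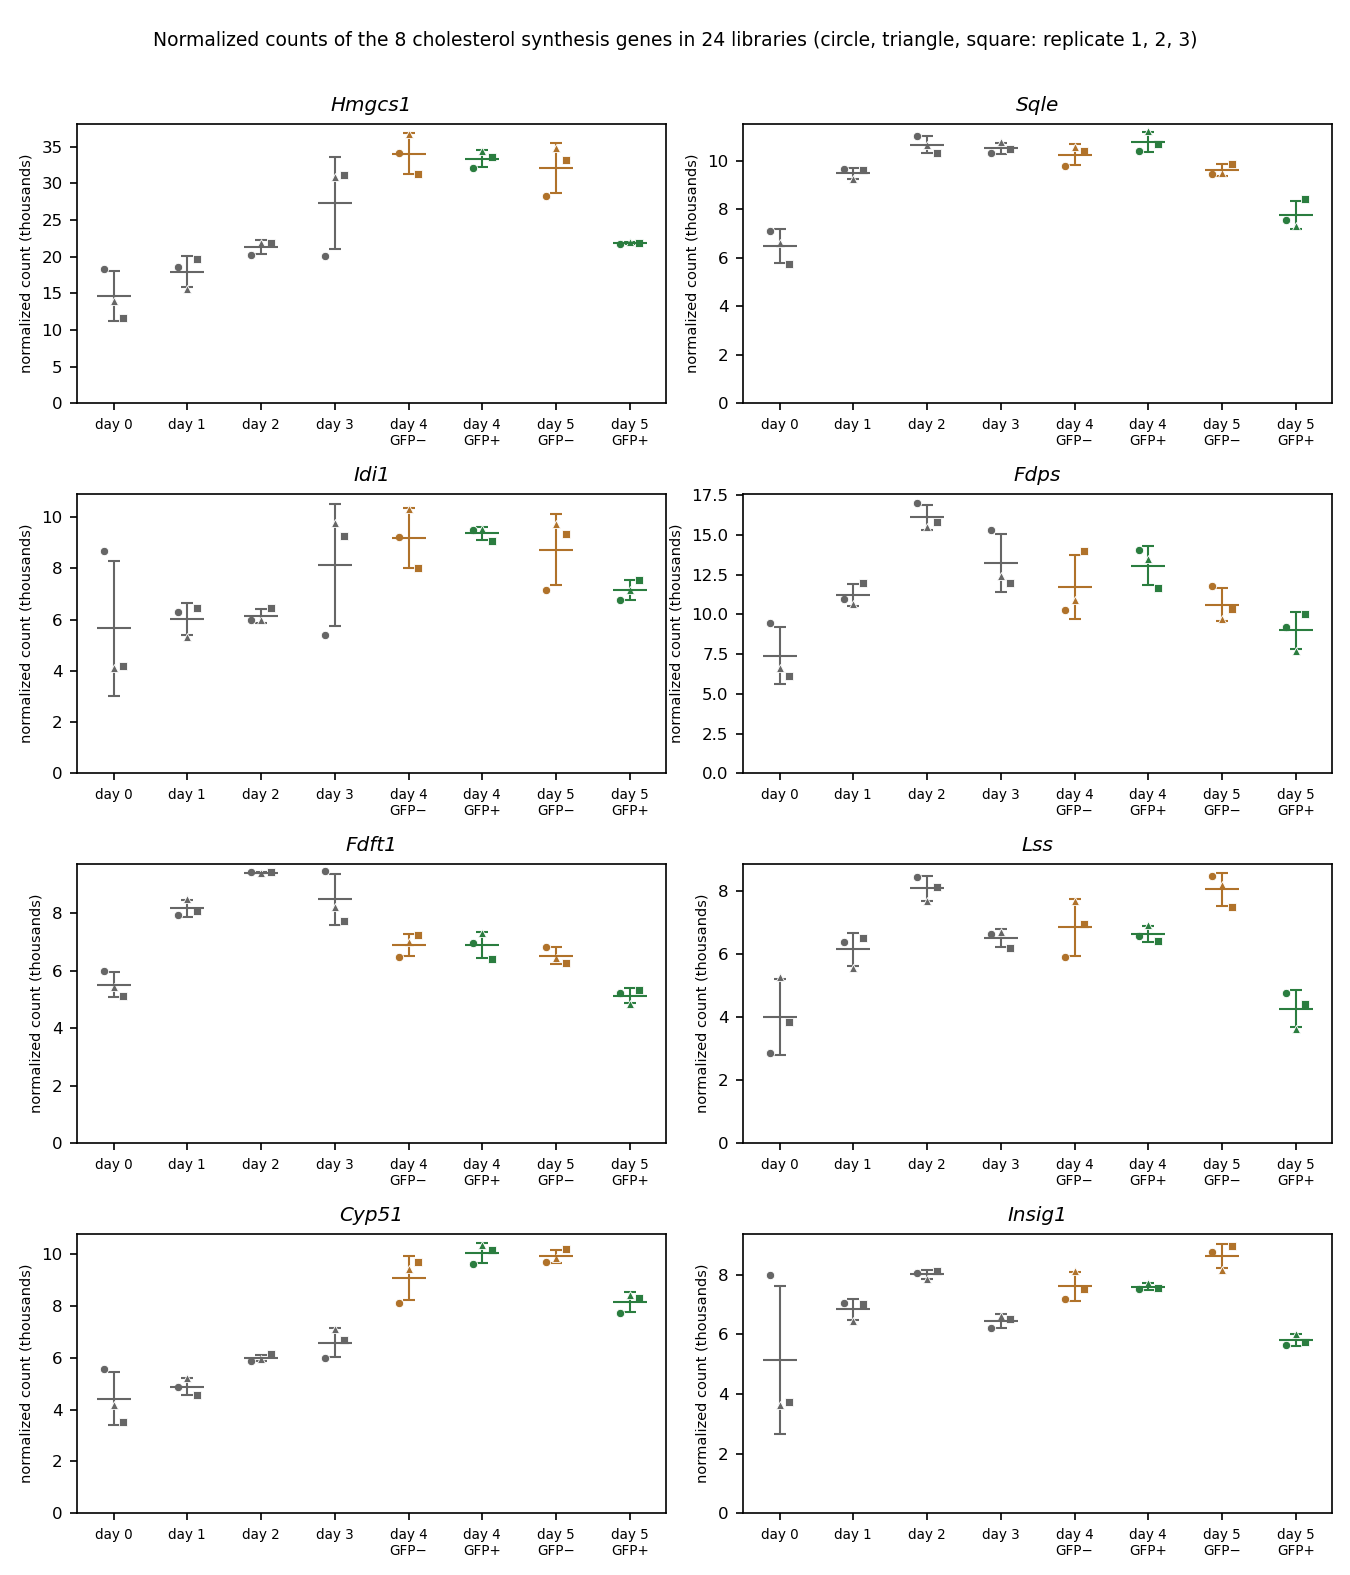
Normalized counts (vertical axes, in k) of the 8 genes in the 24 libraries, 1 panel a gene, with circles, triangles and squares for replicates 1, 2 and 3 and a bar with whiskers for the mean ± SD (n = 3). In every panel the day 5 GFP-positive libraries (green, right) sit below those of day 4 GFP-positive cells, and the day 0 circle stands apart from its group for Idi1 and Insig1.

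The net change before cells were split by GFP, day 3 against day 0, was a rise of 7 of the 8 genes. Fitted values here and below come from limma on log2(normalized count + 1) with Benjamini-Hochberg adjustment over the 21005 genes. Hmgcs1 rose by 0.90 ± 0.16 (SE; adjusted p = 9.76e-05), or 1.86-fold, and Fdps by 0.86 ± 0.15 (SE; adjusted p = 0.000108), or 1.81-fold. Lss (0.74, adjusted p = 0.000525), Sqle (0.70, adjusted p = 9.68e-07), Fdft1 (0.62, adjusted p = 1.06e-05) and Cyp51 (0.60, adjusted p = 0.000415) rose by similar amounts. Idi1 passed narrowly, at 0.57 ± 0.23 (SE; adjusted p = 0.0467). It was lost in 20 of the 24 fits that each left out 1 library, and with a block for the replicate number in the fit (adjusted p = 0.0614). Insig1 did not pass, at 0.43 ± 0.18 (SE; adjusted p = 0.0585). The 7 of 8 compare with 21.1% of all genes called higher in this contrast, and 6 of the 8 had no overlap between the 2 groups of replicates, against 19.6% of all genes. The median difference of the 8 was 0.66, and that of all genes -0.04. With both libraries that stand apart left out, all 8 were called higher, against 24.6% of genes, Insig1 among them at 0.83 ± 0.08 (SE; adjusted p = 2.66e-08) and Idi1 at 1.20 ± 0.13 (SE; adjusted p = 2.45e-07). With day 0 and day 3 alone in the fit 4 of the 8 were called, where 12.5% of genes were called higher, and Lss (adjusted p = 0.0537), Cyp51 (adjusted p = 0.0729) and Idi1 (adjusted p = 0.293) were lost. None passed the thresholds of the study, which 12.0% of genes passed in either direction, although all 8 had an unadjusted p under 0.05. Markers moved with this contrast: 6 of 6 genes of pluripotent cells were lower on day 3, summed at 107323 to 150433 normalized counts on day 0 and 32294 to 41145 on day 3, as were 4 of 6 genes of dissociation stress (1599 to 5932 and 949 to 1265) and 3 of 4 endothelial genes (2011 to 4604.5 and 670 to 862.5), while of 8 mesendoderm genes 5 were higher and 2 lower (2037 to 3434.5 and 3729 to 4024). Their part in the rise was not tested. Day 0 cells differ from day 3 cells in treatment as well as time, since stem cells were kept in medium with serum replacement, serum and LIF, and medium and time cannot be told apart. Likewise, in bulk samples a change in the share of cells of a kind and a change in RNA per cell cannot be told apart.

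By single days, 4 of the 8 genes rose over the first. From day 0 to day 1 Lss (0.66, adjusted p = 0.00806), Fdps (0.62, adjusted p = 0.0112), Fdft1 (0.57, adjusted p = 0.000265) and Sqle (0.55, adjusted p = 0.000197) rose by about 1.5 times each. They act between the isoprenoid units and lanosterol, and their day 1 libraries did not overlap with day 0, which held for 4 of the 8 genes and 9.86% of all genes. The 4 called of 8 compare with 5.23% of all genes called higher, and the median of the 8 was 0.53 beside 0.00 for all genes. Insig1 (0.52, adjusted p = 0.0783), Hmgcs1 (0.31, adjusted p = 0.253), Idi1 (0.18, adjusted p = 0.712) and Cyp51 (0.16, adjusted p = 0.477) did not pass. With day 0 and day 1 alone in the fit the log2 differences were the same but none of these 4 calls was kept (adjusted p from 0.141 for Fdft1 to 0.303 for Lss), where 0.133% of genes were called higher. The call of Fdps was also lost without day 1 replicate 3. Day 0 replicate 1 decides much of the rest: 7 of the 8 were called without it (6.57% of genes higher), and all 8 with both libraries that stand apart left out (7.43% of genes), where Insig1 was 0.89 ± 0.07 (SE; adjusted p = 1.08e-07). None of the 8 passed the thresholds of the study in limma, against 0.738% of genes in either direction, and 5 had an unadjusted p under 0.05. Some markers moved with this step: 2 of 6 genes of pluripotent cells were lower on day 1, summed at 107323 to 150433 normalized counts on day 0 and 77412 to 93308 on day 1, as were 2 of 5 eye field genes (297 to 495 and 170 to 195), 2 of 3 neural genes (12886 to 17414 and 12662 to 14348), 1 of 8 mesendoderm genes, 1 of 4 of surface ectoderm and 1 of 6 of dissociation stress (1599 to 5932 and 1931 to 2974), and none was higher. What part they had in the step was not tested.

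From day 1 to day 2 Fdps rose further, by 0.52 ± 0.15 (SE; adjusted p = 0.0212), and was the only one of the 8 called, against 9.03% of genes called higher. With day 1 and day 2 alone in the fit 7 of the 8 were called, where 16.9% of genes were called higher. The call of Fdps in the full fit was lost without day 1 replicate 1 or 2, or day 2 replicate 1 or 3. The other 7 had values from 0.03 for Idi1 to 0.40 for Lss, and all but Idi1 had day 2 libraries wholly above day 1, which was 7 of 8 genes with Fdps and 22.1% of all genes. Without both libraries that stand apart 5 of the 8 were called, where 14.0% of genes were called higher. At the thresholds of the study limma called 0 of the 8 and 1.47% of all genes, and 4 of the 8 had an unadjusted p under 0.05. Of the markers, 5 of 6 genes of pluripotent cells were lower on day 2, summed at 77412 to 93308 normalized counts on day 1 and 48212 to 51765 on day 2, as were 2 of 4 endothelial genes (2561 to 3047.5 and 1096 to 1262). Of 3 neural genes 1 was higher and 1 lower, and of 4 surface ectoderm genes 1 was higher and 1 lower. Higher too were 1 of 5 eye field and 1 of 8 mesendoderm genes. What part the markers had in the step was not tested.

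From day 2 to day 3 none of the 8 genes was called, against 14.4% of genes called in either direction and 1.0% at the thresholds of the study. With day 2 and day 3 alone in the fit 2 of the 8 were called, where 25.6% of genes were. In limma no gene of the 8 had an unadjusted p under 0.05. Idi1 (0.36 ± 0.23) and Hmgcs1 (0.33 ± 0.16) had positive values, and Insig1 (-0.31 ± 0.18), Lss (-0.31 ± 0.16) and Fdps (-0.29 ± 0.15) negative ones. Day 3 replicate 1, which was low for Idi1 and Hmgcs1 and high for Fdps and Fdft1, bears on this step. Without it and day 0 replicate 1, 5 of the 8 were called, where 28.3% of genes were: Idi1 (0.63, adjusted p = 0.000591) and Hmgcs1 (0.54, adjusted p = 0.000971) higher, and Fdps (-0.40, adjusted p = 0.0236), Insig1 (-0.29, adjusted p = 0.00467) and Fdft1 (-0.24, adjusted p = 0.022) lower. Of the markers, 3 of 5 eye field genes and 4 of 8 mesendoderm genes were higher on day 3, the latter summed at 1944 to 2045 normalized counts on day 2 and 3729 to 4024 on day 3, and 2 of 6 genes of dissociation stress were lower (1887 to 3495 and 949 to 1265). Higher too were 2 of 3 neural, 1 of 4 endothelial and 1 of 4 surface ectoderm genes. Of 6 genes of pluripotent cells 1 was higher and 2 were lower. What part they had in the step was not tested.

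Between day 3 and day 4 Cyp51 rose and Fdft1 fell in both sorted fractions. Cyp51 rose by 0.61 ± 0.12 (SE; adjusted p = 0.000368) into GFP-positive cells, 1.53-fold, and by 0.46 ± 0.12 (SE; adjusted p = 0.00958) into GFP-negative cells, the latter lost without day 3 replicate 1. The summed level of the 5 eye field genes was 213 to 230 normalized counts on day 2, 1095 to 1656 on day 3 and 45893 to 47745.0 in day 4 GFP-positive cells. Fdft1 fell by 0.29 ± 0.09 (SE) on the log2 scale in each, with an adjusted p of 0.0133 for the GFP-positive and 0.0262 for the GFP-negative fraction. The other 6 genes did not pass, with values from -0.01 for Fdps to 0.32 for Hmgcs1 in GFP-positive cells and from -0.18 for Fdps to 0.34 for Hmgcs1 in GFP-negative cells. Day 3 replicate 1 sets these limits: without it Hmgcs1 was at 0.11 and 0.13 and Fdps at 0.095 and -0.07 in the same order. Both contrasts share the day 3 libraries. The 1 of 8 called higher and 1 of 8 called lower compare with 17.1% and 20.9% of all genes for GFP-positive cells, and with 9.49% and 9.01% for GFP-negative cells. The shares of the 8 are thus near those of all genes. At the thresholds of the study limma called 0 of the 8 in either contrast, against 10.7% of genes for GFP-positive and 2.88% for GFP-negative cells, with 2 and 3 of the 8 at an unadjusted p under 0.05. The fall of Fdft1 was lost in both contrasts without day 3 replicate 1, its highest value of that day, and also without day 4 GFP-positive replicate 3 in the former and without day 4 GFP-negative replicate 1 or 2 in the latter. In the latter it was also lost with only the groups compared in the fit (adjusted p = 0.11) and with quantile normalization (-0.22, adjusted p = 0.083). Without both libraries that stand apart 3 of the 8 were called in each contrast, Insig1 in addition (0.21, adjusted p = 0.0187 for GFP-positive and 0.21, adjusted p = 0.0342 for GFP-negative cells), where 44.2% and 23.7% of genes were called in either direction. Other markers moved as well. In GFP-positive cells 6 of 6 genes of pluripotent cells were lower than on day 3, summed at 32294 to 41145 normalized counts on day 3 and 1208 to 2096 on day 4, as were 8 of 8 mesendoderm genes (3729 to 4024 and 358 to 798), 3 of 4 endothelial and 2 of 4 surface ectoderm genes, while 3 of 3 neural genes were higher. In GFP-negative cells 7 of 8 mesendoderm genes were higher, summed at 7371 to 11059, with 4 of 5 eye field genes (8870 to 10833), and 3 of 6 genes of pluripotent cells were lower (14375 to 15923). Higher there too were 1 of 3 neural, 1 of 4 endothelial and 1 of 4 surface ectoderm genes. In each fraction 2 of 6 genes of dissociation stress were lower. What part these had in the differences was not tested.

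The 2 fractions of day 4 were not told apart by these genes. The log2 difference of GFP-positive from GFP-negative cells lay between -0.04 for Lss and 0.17 for Fdps, and the replicates of all 8 genes overlapped. The standard errors, from 0.09 for Sqle to 0.23 for Idi1, set what could be seen. In limma 0 of the 8 were called and 0 had an unadjusted p under 0.05, where 15.7% of all genes were called in either direction and 3.96% at the thresholds of the study, and 0 of the 8 were called without both libraries that stand apart (24.1% of genes). The same fractions differed in 8 of 8 mesendoderm markers, summed at 358 to 798 normalized counts in the GFP-positive and 7371 to 11059 in the GFP-negative fraction, and in 6 of 6 genes of pluripotent cells, summed at 1208 to 2096 and 14375 to 15923. A pooled count of this kind describes whole fractions, and the part of any cell type within them was not tested.

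On day 5, 5 of the 8 genes were lower in GFP-positive cells, and the log2 difference was below 0 for all 8. Lss differed most, at -0.92 ± 0.16 (SE; adjusted p = 0.000149), a level 1.90 times higher in the GFP-negative fraction. Insig1 (-0.57, adjusted p = 0.0329), Hmgcs1 (-0.55, adjusted p = 0.0205), Fdft1 (-0.35, adjusted p = 0.00934) and Sqle (-0.31, adjusted p = 0.0139) were also lower. Cyp51 (-0.28, adjusted p = 0.132), Idi1 (-0.28, adjusted p = 0.503) and Fdps (-0.24, adjusted p = 0.349) did not pass, and the replicates of Idi1 and Fdps overlapped. The 5 of 8 called compare with 12.3% of all genes called lower, and the 6 of 8 without overlap with 20.8%. The median was -0.33 for the 8 and 0.00 for all genes. Each of the 3 GFP-positive libraries, and GFP-negative replicates 2 and 3, took the count to 2 or 3 of 8 when left out, with Insig1 lost in 6, Hmgcs1 in 5 and Sqle in 3 of the 24 fits without 1 library and Fdft1 and Lss in none. With both libraries that stand apart left out it was 6 of 8, where 15.5% of genes were called lower. At the thresholds of the study limma called 0 of the 8, with 6 at an unadjusted p under 0.05, and 5.01% of genes. Markers moved with this contrast too: 8 of 8 mesendoderm genes were lower in GFP-positive cells, summed at 292 to 502 normalized counts against 5294 to 6224, as were 6 of 6 genes of pluripotent cells, at 355 to 514 against 4975 to 5839, and 3 of 4 genes of surface ectoderm, at 3028 to 3255 against 7118 to 11012, and 3 of 4 endothelial genes, at 695 to 858 against 1313 to 1992. Lower too were 1 of 3 neural and 1 of 6 dissociation stress genes, while 5 of 5 eye field genes were higher. Their part in the difference was not tested.

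Within GFP-positive cells, day 5 against day 4, 5 of the 8 genes fell. The day 5 replicates of all 8 lay below those of day 4, which held for 15.8% of all genes. Lss fell by 0.65 ± 0.16 on the log2 scale (SE; adjusted p = 0.00841), or 1.56 times. Hmgcs1 fell by 0.61 (adjusted p = 0.0159), Fdps by 0.54 (adjusted p = 0.0257), Sqle by 0.48 (adjusted p = 0.00065) and Fdft1 by 0.43 (adjusted p = 0.00293) on the same scale. Idi1 (-0.39, adjusted p = 0.378), Insig1 (-0.39, adjusted p = 0.224) and Cyp51 (-0.30, adjusted p = 0.143) did not pass. The 5 of 8 called compare with 5.24% of all genes called lower, and the median of the 8 was -0.45 beside 0.00 for all genes. Leaving out day 4 GFP-positive replicate 2 or day 5 GFP-positive replicate 1 or 2 left 3 of the 8, with Fdps lost in 4, Hmgcs1 in 2 and Lss in 1 of the 24 fits without 1 library and Sqle and Fdft1 in none. Leaving out both libraries that stand apart gave all 8, where 8.23% of genes were called lower. That last count rests on a smaller estimate of the spread, since neither library belongs to this contrast and the differences themselves are unchanged by it. At the thresholds of the study limma called 0 of the 8 and 1.49% of genes, with 7 of the 8 at an unadjusted p under 0.05. Markers also moved here. Lower on day 5 were 4 of 6 genes of pluripotent cells, summed at 1208 to 2096 normalized counts on day 4 and 355 to 514 on day 5, 4 of 8 of mesendoderm (358 to 798 and 292 to 502) and 1 of 3 neural genes. Higher on day 5 were 2 of 5 eye field genes (45893 to 47745.0 and 54804 to 57307), 2 of 6 genes of dissociation stress (1071 to 1138 and 844.5 to 4364), 1 of 4 of surface ectoderm and 1 of 4 endothelial genes, whose sum was 121 to 227 on day 4 and 695 to 858 on day 5. Their part in the difference was not tested.

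In GFP-negative cells no gene of the 8 was called from day 4 to day 5. The differences lay between -0.13 for Fdps and 0.24 for Lss, and 0 of the 8 were called in limma, with 0 at an unadjusted p under 0.05, against 10.2% of genes called in either direction and 1.27% at the thresholds of the study. Without both libraries that stand apart Insig1 was called (0.18, adjusted p = 0.0431), 1 of 8, where 20.1% of genes were. Lower on day 5 were 3 of 6 genes of pluripotent cells, summed at 14375 to 15923 normalized counts on day 4 and 4975 to 5839 on day 5, and 3 of 8 mesendoderm genes (7371 to 11059 and 5294 to 6224). Of 5 eye field genes 2 were higher and 2 lower. Higher were 1 of 3 neural, 2 of 4 endothelial and 1 of 6 dissociation stress genes. The part of these markers was not tested. Whether the fractions changed differently was tested as the difference of the gate on day 5 minus that on day 4. It was negative for all 8 genes, from -0.89 for Lss to -0.31 for Idi1, and for none did it pass: Lss, at -0.89 ± 0.22 (SE; adjusted p = 0.0547), came closest. In limma 0 of the 8 were called, where 1.1% of all genes were called in either direction and 0.109% at the thresholds of the study. At an unadjusted p under 0.05 were 6 of the 8, a count with no share of all genes to set beside it. Without both libraries that stand apart 6 of the 8 were called, where 2.09% of genes were called lower, from -0.89 ± 0.17 (SE; adjusted p = 0.00392) for Lss to -0.35 ± 0.09 (SE; adjusted p = 0.0453) for Fdft1. Neither library is in this contrast and the differences themselves were unchanged, so that this count rests on the lower spread alone. Without day 0 replicate 1 alone, 3 were called (1.82% of genes lower). This difference uses the same 12 libraries as the sort on each day and the step in each fraction, so these results are not independent of each other.

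**Figure D2:**
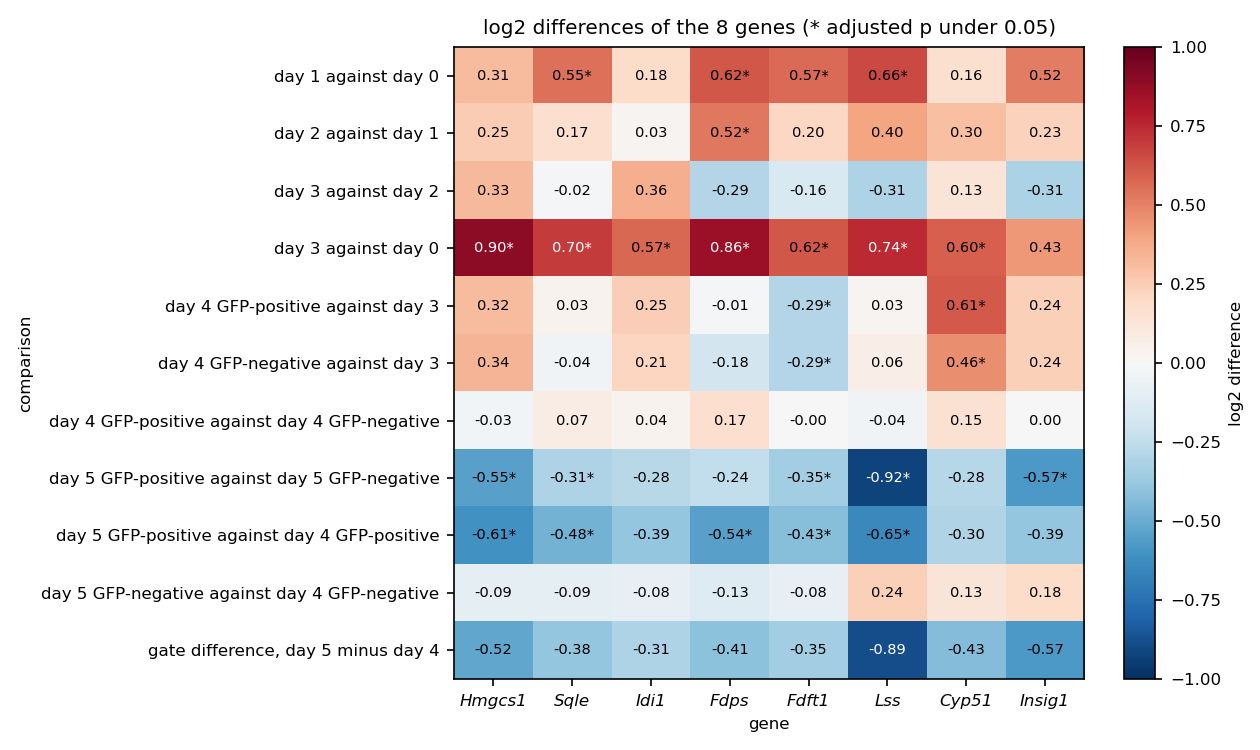
Log2 differences of the 8 genes (columns) in the 11 contrasts (rows), with an asterisk for an adjusted p under 0.05 in limma. The row of day 3 against day 0 holds 7 asterisks, the rows of day 4 GFP-positive against GFP-negative and of day 5 against day 4 in GFP-negative cells hold none, and the rows of day 5 GFP-positive cells are all negative.

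Of the other enzymes of the pathway, 12 are described: Acat2, Mvk, Pmvk and Mvd of the mevalonate steps, and Tm7sf2, Lbr, Msmo1, Nsdhl, Hsd17b7, Ebp, Sc5d and Dhcr7 of the steps after lanosterol. From day 0 to day 3, 7 of the 12 rose and 2 fell at an adjusted p under 0.05, where 21.1% of all genes were called higher and 22.6% lower. Sc5d (0.99, adjusted p = 9.61e-06) and Hsd17b7 (0.94, adjusted p = 3.93e-05), both enzymes of ring trimming, rose most, and Acat2, which makes the first intermediate, rose by 0.51 ± 0.11 (SE; adjusted p = 0.000851). The 2 that fell were Ebp (-0.47, adjusted p = 0.00101), a sterol isomerase, and Lbr (-0.50, adjusted p = 0.000421), a sterol reductase that is also a receptor for lamin B in the nuclear envelope. The first day took Dhcr7 (0.73, adjusted p = 3.06e-05) and Hsd17b7 (0.58, adjusted p = 0.0169) up, 2 of the 12 (5.23% of all genes), and without both libraries that stand apart 6 of the 12 were called higher (7.43%).

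On day 5, 6 of the 12 were lower in the GFP-positive fraction and none was higher, with a median of -0.44, where 12.3% of all genes were called lower. These were Ebp (-0.56, adjusted p = 0.000468), Mvd (-0.51, adjusted p = 0.00944), Dhcr7 (-0.48, adjusted p = 0.000784), Tm7sf2 (-0.48, adjusted p = 0.0386), Sc5d (-0.43, adjusted p = 0.0441) and Acat2 (-0.35, adjusted p = 0.0344). Within GFP-positive cells 11 of the 12 had values below 0 from day 4 to day 5, with a median of -0.22. In limma 0 of the 12 passed, where 5.24% of all genes were called lower, and 3 had an unadjusted p under 0.05. Without both libraries that stand apart 3 were called lower (8.23% of all genes). The change of the gate difference from day 4 to day 5 was below 0 for 12 of 12. It passed for none in limma, where 0.571% of all genes were called lower, and 6 had an unadjusted p under 0.05. Without both libraries that stand apart 5 were called lower (2.09% of all genes). From day 3 to day 4, 5 of the 12 rose into GFP-positive cells (17.1% of all genes) and 4 into GFP-negative cells (9.49%), Nsdhl most in both (0.73, adjusted p = 3.2e-05 and 0.60, adjusted p = 0.00074). In GFP-negative cells 10 of the 12 had values above 0 from day 4 to day 5, with a median of 0.17, and Tm7sf2 (0.67, adjusted p = 0.00704) and Dhcr7 (0.34, adjusted p = 0.0266) rose, 2 of the 12 beside 5.72% of all genes called higher. The 12 genes and the 8 share their libraries.

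**Figure D3:**
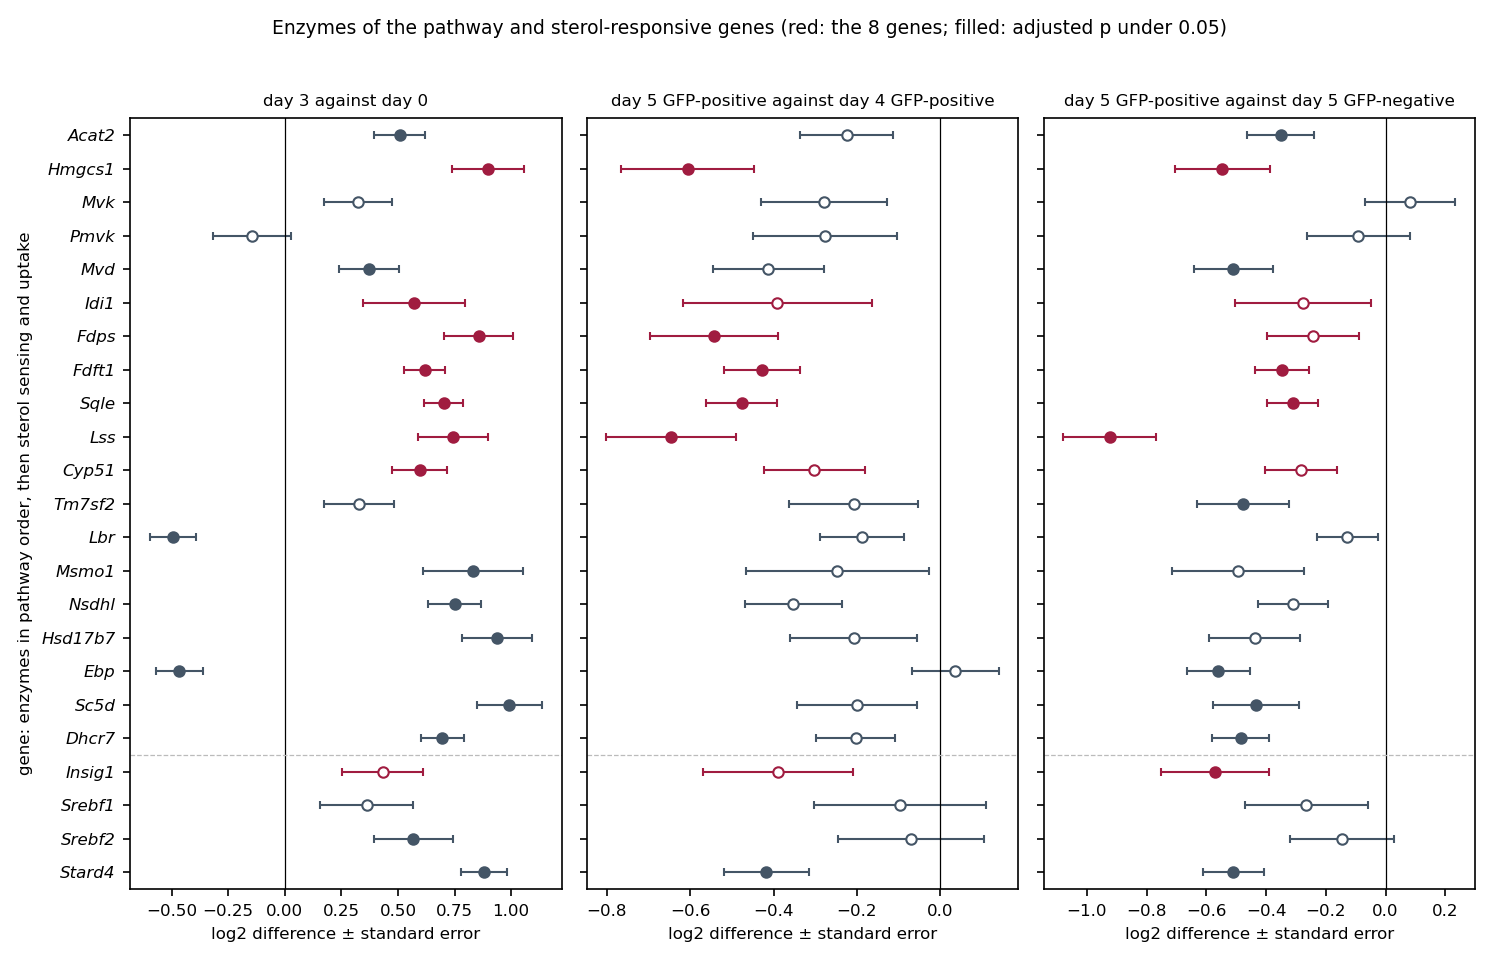
Log2 differences ± SE (n = 3 libraries a group) of 23 genes in 3 contrasts, with the enzymes in the order of the pathway above the dashed line and genes of sterol sensing and uptake beneath it. Red marks the 8 genes and filled points an adjusted p under 0.05, and most enzymes sit right of 0 for day 3 against day 0 and left of 0 in both day 5 panels.

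Of 4 genes of the isoprenoid branch, which use the same units for other lipids, Dhdds (0.53, adjusted p = 0.00227) and Coq2 (0.45, adjusted p = 0.0471) rose and Pdss1 (-0.50, adjusted p = 0.0135) fell from day 0 to day 3, 2 and 1 of 4 beside 21.1% of all genes called higher and 22.6% lower. Dhdds (0.64, adjusted p = 0.000454) and Coq2 (0.50, adjusted p = 0.0341) rose into day 4 GFP-positive cells, 2 of 4 beside 17.1% of all genes. In limma 0 of the 4 were called in the day 5 sort. There their median was 0.11, 1 had an unadjusted p under 0.05, and 3.78% of all genes were called higher and 12.3% lower. From day 4 to day 5 in GFP-positive cells 0 of the 4 were called and 0 had an unadjusted p under 0.05 in limma, with a median of 0.005, beside 9.8% of all genes called in either direction.

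Of 6 genes that sense sterol, 2 were called higher from day 0 to day 3, beside 21.1% of all genes. None was called in another contrast, where 1.1% to 37.9% of all genes were called in either direction. Srebf2, the SREBP that drives cholesterol enzymes, rose from day 0 to day 3 by 0.57 ± 0.17 (SE; adjusted p = 0.0116). Srebf1 was not called in any contrast, with 0.36, adjusted p = 0.17 from day 0 to day 3. In day 5 GFP-positive cells Srebf2 differed from day 4 by -0.07 ± 0.17 (SE; adjusted p = 0.915), and Scap, Mbtps1 and Mbtps2, the escort and the proteases of SREBP, were not called in any contrast. Insig2, the paralogue of Insig1, was 0.52 higher on day 3 than on day 0 (adjusted p = 0.0194). RNA of these genes does not show how much SREBP protein was cleaved.

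Of 4 genes that bring sterol in or move it, 4 rose from day 0 to day 3 and 3 were lower in GFP-positive cells on day 5, at an adjusted p under 0.05, beside 21.1% of all genes higher in the former and 12.3% lower in the latter. Stard4, a carrier of sterol between membranes, rose by 0.88 to day 3 (adjusted p = 5.09e-07) and fell by 0.42 in GFP-positive cells (adjusted p = 0.00966). Mylip, a ubiquitin ligase that is driven by oxysterol receptors and limits the uptake of sterol, was on the same list but acts the other way and is not in these counts. It differed between the fractions, with log2 differences of the GFP-positive from the GFP-negative level of -1.99 (day 4, adjusted p = 1.28e-07) and -1.38 (day 5, adjusted p = 1.27e-05).

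The 8 genes did not share a single profile. Over the 8 group means of log2(normalized count + 1), the 28 pairs had a median Pearson's r of 0.674, from -0.172 for Fdft1 with Cyp51 to 0.98 for Hmgcs1 with Idi1, with 9 pairs above 0.8 and 4 below 0.3. The groups share a line and a time course, and these values are descriptions over 8 points. Hmgcs1, Idi1 and Cyp51 went together, at 0.92 to 0.98, and were highest on day 4. Fdps, Fdft1 and Lss were highest on day 2, where the replicates of Lss overlapped those of day 5 GFP-negative cells. Sqle, though highest on day 4 by its mean, was close to Fdps, at 0.93. Insig1 lay nearest to Lss, at 0.948, and both had their lowest levels after day 0 in day 5 GFP-positive cells. The same held for Sqle and Fdps, and Fdft1 was lowest of all groups there.

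**Figure D4:**
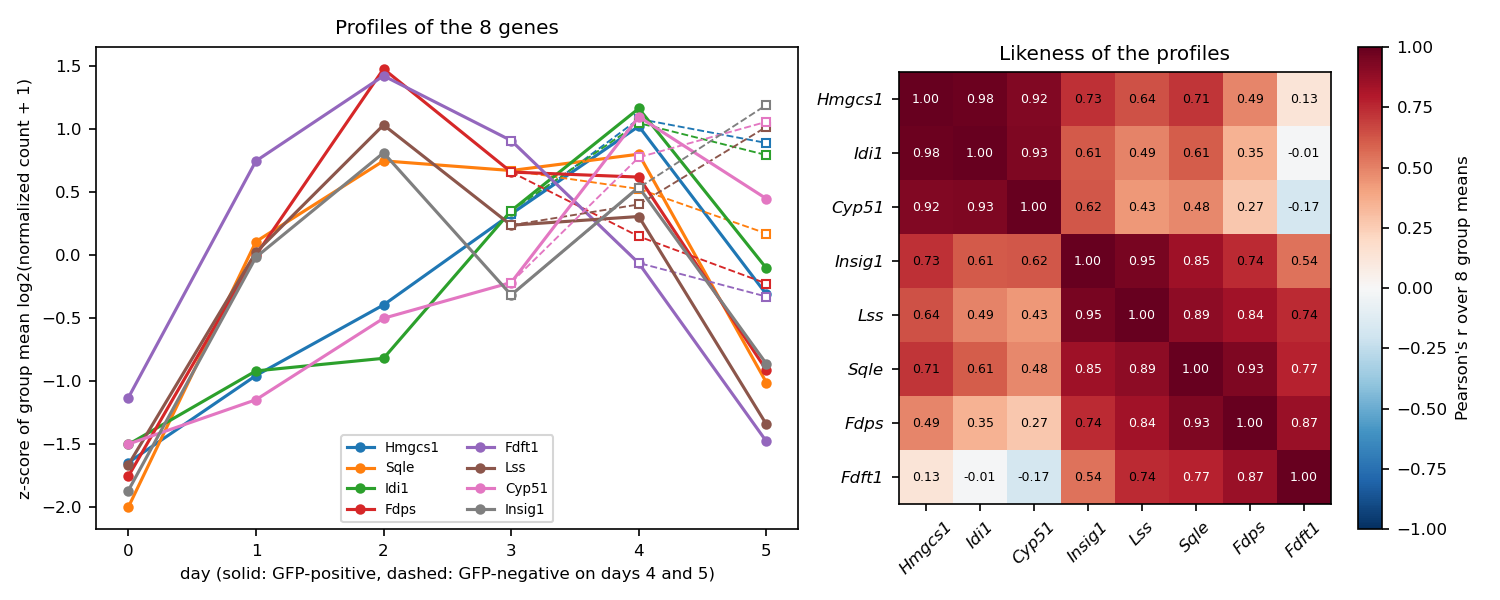
Left, z-scores of the group means of log2(normalized count + 1) of the 8 genes by day, solid for live and GFP-positive cells and dashed for GFP-negative cells; right, Pearson's r between genes over the 8 group means. Hmgcs1, Idi1 and Cyp51 climb to day 4 while Fdps, Fdft1 and Lss peak on day 2, and all solid lines drop from day 4 to day 5.

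Other genes were ranked by the correlation of their 8 group means with the mean z-score of the 8 genes, over 10629 genes whose group means had an SD of at least 0.5. Among the nearest were Gm20661 (0.967), Gm7842 (0.961), Akap6 (0.947), Tnxb (0.933), Izumo1 (0.931), Camkv (0.928), 9430021M05Rik (0.928), Smim10l2a (0.926) and Spo11 (0.926). Several of these were low, with highest group means of 12.6 normalized counts for Gm20661, 22.0 for Gm7842 and 21.9 for Spo11. Among genes of the sterol lists, whatever their SD, Stard4 (0.975), Mvd (0.923) and Msmo1 (0.841) were nearest, and Ebp (-0.314) and Lbr (-0.413) farthest.

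Reads shared with other genes bear on some of these levels, since kallisto splits them by estimate. Of the 31-base words in its annotated transcripts, Fdft1 shared 31.9% with other genes, of which 17.6% with Ctsb, an overlapping gene that reached 4905 normalized counts, and 14.3% with Gm6781, which reached no more than 5.06 normalized counts. Fdps shared 27.9%, of which 24.6% with Gm43738, and Idi1 27.1%, of which 18.4% with Gm13502, which reached 1079 normalized counts. Hmgcs1 shared 13.1%, and the other 4 genes shared 0.969% to 3.88%. The strandedness of the counting is not given in the sources used here, so the levels of Fdft1, Fdps and Idi1 are less certain than those of Sqle, Lss, Cyp51 and Insig1.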

How the data were processed

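PolyA RNA of 24 libraries (8 groups of 3 biological replicates) was sequenced from TruSeq libraries. The authors estimated read counts per gene with kallisto 0.43.1 against the Ensembl RNA of mouse build mm10, coding and non-coding, as the methods and the submitters' processing notes state, and divided them by DESeq2 normalization factors. The deposited values are this normalized signal, not raw counts, and the strandedness is not given in the sources used here. Whole reads could not be recovered from the estimates, so no count model was run. Columns with the authors' calls of gene sets were not used. Depth before scaling is not known from the table. The labels give the differentiation medium as GMEM with 1.5% serum replacement, while the study's methods name a chemically defined medium for the initial organoids, so which medium these organoids grew in is not settled here. Day 0 cells were kept with 10% serum replacement, 1% FCS and LIF.

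The 21005 genes that reached 10 in 3 or more libraries were fitted as log2(value + 1) with limma 3.58.1 (R 4.3.3; linear model, contrasts and moderated test with trend), all 24 libraries in 1 fit of 8 group means, with Benjamini-Hochberg adjustment within each of 11 contrasts. Counts use the study's thresholds (adjusted p under 0.001, log2 difference beyond 1.5) and an adjusted p under 0.05. The share of all genes at an unadjusted p under 0.05 was not counted, so the shares given are not those for counts at that level. Fold differences understate changes of low genes. The fit was tested on simulated data for day 4 GFP-positive against day 3 with 19892 genes, where it recovered 80 of 100 genes planted at a log2 difference of 1 and 98 of 100 planted at 2. Tables and figures were made in Python 3.11.15 with pandas 2.3.3, numpy 2.4.6 and matplotlib 3.10.9.

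The 8 genes and all lists were chosen with earlier results of these data known. Genes named besides the 8 were drawn from those of the sterol lists that pass the study's thresholds, the 2 largest called changes per list and contrast, and the 10 nearest profiles. Scarb1, Nr1h2, Fasn and Acss2 came under this rule but are not described, and not every called change of the named genes is given. Some genes of the pathway and of sterol uptake that these lists or this rule held are not reported here, and list counts leave them out. Srebf1, the SREBP partners and other list members outside this rule were named for completeness after their values were seen. Same-numbered replicates deviated from their group means with a correlation that averaged -0.001 across pairs of groups (lowest -0.284), so the numbers were not taken to pair samples. Other settings tried were a pseudocount of 0.5 or 5, a filter of 50 or none, quantile normalization, eBayes without trend, a replicate block, only the groups compared, and each library left out in turn. A fit without day 0 replicate 1 and day 3 replicate 1 was added after the data were seen.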

Additional observations from a re-analysis of the deposited data

How the results depend on the processing

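The count of the 8 genes past the study's thresholds was 0 in all 11 contrasts under every alternative. Counts at an adjusted p under 0.05 moved by over 1.5 times as follows. With only the groups compared, they were 0 (4 in the full fit) for day 1 against day 0, 7 (1) for day 2 against day 1, 2 (0) for day 3 against day 2, 4 (7) for day 3 against day 0, 1 (2) for day 4 GFP-negative against day 3, 8 (5) for day 5 against day 4 in GFP-positive cells and 3 (0) for the change of the gate difference. Such fits use fewer libraries, and the share of all genes called in either direction moved too, in the same order from 10.0% to 0.415%, 16.6% to 34.6%, 14.4% to 25.6%, 43.6% to 26.6%, 9.49% to 9.56% (higher only), 9.8% to 18.6% and 1.1% to 3.81%. Without day 0 replicate 1 and day 3 replicate 1 (chosen after seeing the data), they were 8 for day 1 against day 0, 5 for day 2 against day 1, 5 for day 3 against day 2, 8 for day 5 against day 4 in GFP-positive cells, 1 for day 5 against day 4 in GFP-negative cells and 6 for the change of the gate difference. The last was 1 each with a pseudocount of 5, a filter of 50 and quantile normalization. For day 4 GFP-negative against day 3 the count was 1 with no filter and 1 with quantile normalization.

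Leaving out 1 library at a time gave 3 to 7 for day 1 against day 0, 0 to 4 for day 2 against day 1, 0 to 1 for day 3 against day 2, 6 to 8 for day 3 against day 0, 1 to 3 for day 4 GFP-positive against day 3, 0 to 3 for day 4 GFP-negative against day 3, 0 to 0 between the day 4 fractions, 2 to 6 between the day 5 fractions, 3 to 7 for day 5 against day 4 in GFP-positive cells, 0 to 0 in GFP-negative cells and 0 to 3 for the change of the gate difference. Day 0 replicate 1 gave the 7, the 4, a 1 for day 3 against day 2 and the 3 of the last. For day 2 against day 1 the count was 0 without day 1 replicate 1 or 2 or day 2 replicate 1 or 3, and 2 without day 0 replicate 2. For day 3 against day 2 it was 1 without day 3 replicate 1. It was 1 without day 3 replicate 1 or day 4 GFP-positive replicate 3 for day 4 GFP-positive against day 3, and for day 4 GFP-negative against day 3 it was 0 without day 3 replicate 1 and 1 without day 4 GFP-negative replicate 1 or 2. The change of the gate difference gave 1 without day 0 replicate 2.

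Of the 26 single results of the 8 genes that passed, 0 changed sign under any alternative, 17 stayed past the threshold under every other setting of the fit to all 24 libraries or to the groups compared, and 14 in all 24 fits without a library. With the replicate block 25 of 26 stayed, and the count for day 3 against day 0 went from 7 to 6 with the loss of Idi1. Quantile normalization moved the median of all genes by at most 0.08 and turned the sign of 7 small values that had not passed, the largest that of Hmgcs1 in GFP-negative cells from day 4 to day 5 (-0.09 to 0.10). With 3 replicates a group, differences of over 2 standard errors could still miss the threshold, such as 0.43 ± 0.18 for Insig1 from day 0 to day 3 and 0.33 ± 0.16 for Hmgcs1 from day 2 to day 3.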

Other observations

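Genes of sterol export and of fatty acid synthesis, which are not described above, reached larger log2 differences than the 8 genes. From day 0 to day 3, 3 of 8 export and storage genes rose and 1 fell, and 5 of 10 fatty acid genes rose and 0 fell, at an adjusted p under 0.05 in limma, beside 21.1% of all genes called higher and 22.6% lower. Abcg1, an exporter of sterol that is switched on by oxysterols, rose from 264 ± 34.5 (SD, n = 3) normalized counts on day 0 to 1659 ± 90 (SD, n = 3) on day 2, by 1.90 ± 0.14 on the log2 scale over the first day (SE; adjusted p = 6.75e-08, limma). It then fell by 3.36 in GFP-positive cells (adjusted p = 1.84e-13) and 2.00 in GFP-negative cells (adjusted p = 3.46e-09) on day 4. Apoe, a carrier of lipid outside cells, fell by 1.88 on day 4 in GFP-positive cells (adjusted p = 9.2e-08). Cyp46a1, which turns cholesterol into an exported hydroxysterol in neurons, rose there by 2.22 (adjusted p = 2.07e-05). Ch25h, which makes an oxysterol, was at 15.5 to 28.0 normalized counts in day 5 GFP-positive cells, at most 3.18 in the other sorted groups, and was called higher against day 5 GFP-negative (2.98, adjusted p = 0.00469) and day 4 GFP-positive cells (2.92, adjusted p = 0.00933). Soat1, which stores cholesterol as esters, was 1.75 higher on day 3 than on day 0 (adjusted p = 5.69e-09).

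Of the fatty acid genes, 4 of 10 rose over the first day, where 5.23% of all genes did, and these were the desaturases Scd1 (1.38, adjusted p = 3.16e-06), Scd2 (1.22, adjusted p = 9.59e-05), Fads1 (0.95, adjusted p = 1.09e-05) and Fads2 (1.72, adjusted p = 8.03e-05). Scd2 went from 15829.6 ± 6005 (SD, n = 3) normalized counts on day 0 to 112656 ± 8742 (SD, n = 3) in the day 4 GFP-positive fraction. In GFP-positive cells from day 4 to day 5 none of the 4 was called, with values from -0.19 for Scd1 to 0.04 for Fads1, while 3 of the 10 genes were called lower (5.24% of all genes), Me1 (-0.85, adjusted p = 0.00316) and Elovl6 (-0.73, adjusted p = 0.0251) among them. Me1, malic enzyme, was lower in the GFP-positive fraction of day 5 (-1.54, adjusted p = 1.69e-06).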
